A study of Mus musculus with 6 samples.

Results

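The genes described here are 7 S100 genes (S100a4, S100a6, S100a8, S100a9, S100a10, S100a11 and S100a13) together with lipocalin 2 (Lcn2) and annexin A1 (Anxa1), a set of calcium-binding proteins and alarmins of which several are abundant in neutrophils. They were taken by gene symbol, and all 9 were found among the 54532 genes of the deposited table. Their levels were measured by RNA-seq in 6 libraries of mouse bone marrow-derived macrophages, which are cells grown in culture from marrow progenitors. A group of 3 libraries was labelled NSUN2-KO and a group of 3 NC, where NSUN2 is an enzyme that methylates cytosines of RNA. All 6 cultures, the controls included, had been given LPS and IFN-γ, which turn macrophages towards inflammatory M1 activation, and cultures without stimulation were not analysed here. The labels give mice as the source of both groups and call the libraries biological replicates. They give no strain, age, duration of stimulation or way in which the knockout was made, and do not spell out NC. The comparison asks how macrophages labelled NSUN2-KO differ from controls after M1 polarization, here for these 9 genes.

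S100 proteins are small calcium sensors of the cytoplasm that change shape when calcium binds and then dock onto target proteins. S100a8 and S100a9 encode the subunits of calprotectin, the metal-binding heterodimer that fills the cytosol of neutrophils, is also made by monocytes, and acts as an alarmin through TLR4 when it leaves the cell. Lipocalin 2 starves bacteria of iron by binding their siderophores, is stored in neutrophil granules and is made by macrophages after LPS. Annexin A1 binds membranes in the presence of calcium and, once outside the cell, acts on formyl peptide receptors.

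Values are FPKM, a read count divided by gene length and by library depth. Genes averaging 1 FPKM or more were tested with limma on log2(FPKM + 1), and an adjusted p below 0.05 over all 9443 tested genes was taken as a change. Every fold change is on that scale, NSUN2-KO minus NC, and understates the change of low genes. Reads assigned to genes, recovered from the FPKM values, numbered 35019033 to 45636131 per library. Markers of the labelled cell type and state were abundant. All 10 macrophage markers were tested and summed to 4654 to 4741 FPKM in the NC libraries and 4188 to 4240 FPKM in the knockout (2 higher, 3 lower). Of these, Lyz2 (myeloid lysozyme) averaged 1736 ± 31.2 and 1163 ± 47.1 FPKM and was called lower. The other 9 markers summed to 2947 to 2971 FPKM in the NC libraries and 3004 to 3091 FPKM in the knockout. They did not move together: Cd68 and Fcgr1 were called lower, and Cd14 and Marco higher. These calls were kept in 11, 9, 17 and 16 of 17 alternative settings, in that order. All 9 M1 markers were tested (7 higher, 0 lower, beside 4.19% higher and 4.30% lower over all tested genes). Monocyte markers summed to 63.2 to 64.7 FPKM in the NC libraries and 69.6 to 76.9 FPKM in the knockout, with Ly6c2, which has a near-identical paralog, higher (14.2 ± 1.01 to 21.8 ± 1.82 FPKM, limma adjusted p = 0.00312) and 6 of 7 tested markers not called. Ccr2 went the other way, from 8.89 ± 0.78 to 7.47 ± 0.47 FPKM with groups apart, and was not called (limma adjusted p = 0.0943). The fold change was positive in 6 of the 7 tested monocyte markers and in 4551 of all 9443 tested genes. Markers of mast cells, basophils and eosinophils, of T and NK cells, of B cells, of erythroid cells and of stroma had 0 tested genes, and each of these lists summed to at most 1.78 FPKM in any library. Of 8 dendritic cell markers 2 were tested, and Ccr7 was higher (2.98 ± 0.65 to 5.24 ± 0.32 FPKM, limma adjusted p = 0.0144). Its call was lost without NSUN2-KO replicate 1 (0.0600) and when low genes were kept in the test (0.0884). Nsun2 measured 1.88, 2.04 and 1.84 FPKM in the NC libraries and 0.967, 1.36 and 0.863 FPKM in the knockout, so that its RNA was lower in every knockout library and absent from none, and the labels do not say which exons were targeted. Reads of Kdm5d, Uty, Eif2s3y and Ddx3y, genes of the Y chromosome, were present in every NC library and at 0 in every NSUN2-KO library, and Xist averaged 14.5 ± 0.88 FPKM in NC against 30.6 ± 1.20 FPKM. The sex-linked difference goes with the groups in all 6 libraries and cannot be told apart from the genotype for any gene described here.

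Of the 9 genes, Lcn2 rose to 119.4% of the NC level in NSUN2-KO and S100a9 fell to 77.3%. S100a8, the partner subunit of S100a9, did not pass the test, and neither did the most abundant S100 genes, S100a11 and S100a10. S100a11 and Anxa1 lay higher in all 3 NSUN2-KO libraries than in any NC library, at 109.4% and 106.5% of the NC mean, without passing the test. Of the 9 genes, 8 passed the filter, and of these 1 was called higher and 1 lower. Over all tested genes 4.19% were called higher and 4.30% lower, and with 8 genes these shares amount to less than 1 gene each way. The groups did not overlap in 3 genes that were higher (Lcn2, S100a11 and Anxa1) and 1 that was lower (S100a9), against 14.4% and 16.7% of all tested genes. The median log2 fold change of the 8 genes was -0.03, beside -0.01 over all tested genes, and 4 of the 8 were positive.

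**Figure D1:**
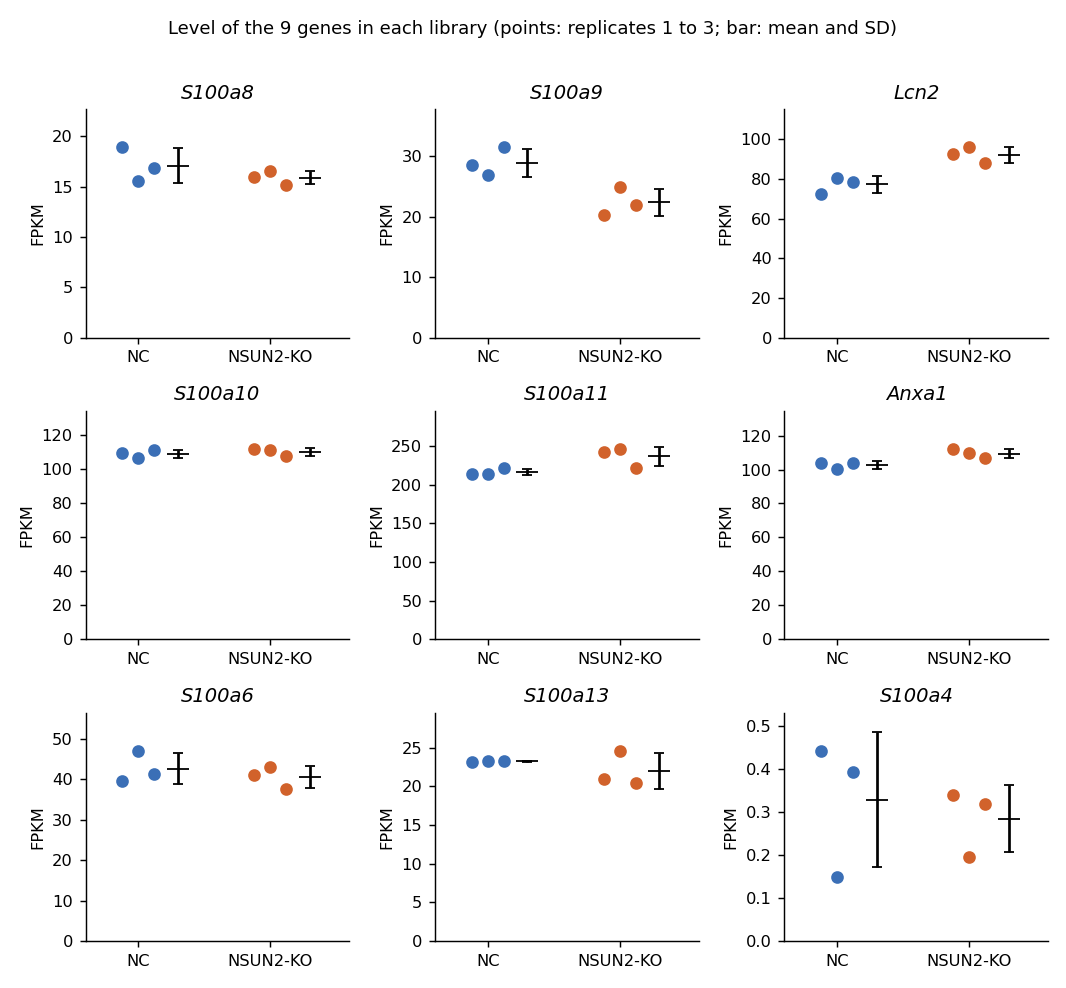
Level of each of the 9 genes in FPKM (vertical axes start at 0) in the 3 NC and 3 NSUN2-KO libraries, points for libraries and bars for mean and SD. The groups lie apart in S100a9, Lcn2, S100a11 and Anxa1, while S100a4 stays below 0.5 FPKM throughout.

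The start regions of S100a9, S100a8 and Lcn2 are shown because the results turn on the calprotectin pair and on the gene that rose. The sequences are RefSeq promoter entries on GRCm38.p6 (mouse), 5′ to 3′ on the strand of the gene. Of the 250 bases before the start, the longest run free of annotated exons is printed, and capitals mark motif matches. The start is that of the RefSeq entry, and for S100a8 and Lcn2 it lies inside the deposited gene positions given below. Annotated exons cover 93 of the 250 bases in S100a8, 197 in Lcn2 and 0 in S100a9. The whole printed run of Lcn2 lies within its deposited gene positions. S100a9 lies on the minus strand (chr3:90695722-90695971), S100a8 on the plus strand (chr3:90668821-90668977) and Lcn2 on the minus strand (chr2:32387798-32387850).
S100a9: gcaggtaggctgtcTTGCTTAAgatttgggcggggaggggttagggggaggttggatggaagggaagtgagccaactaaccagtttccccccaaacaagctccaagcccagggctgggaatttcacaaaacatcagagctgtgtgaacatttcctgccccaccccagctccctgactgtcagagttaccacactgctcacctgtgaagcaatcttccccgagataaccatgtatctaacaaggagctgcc
S100a8: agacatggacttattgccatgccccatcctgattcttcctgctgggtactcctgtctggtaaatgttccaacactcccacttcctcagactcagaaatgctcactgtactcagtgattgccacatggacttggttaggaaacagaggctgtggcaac
Lcn2: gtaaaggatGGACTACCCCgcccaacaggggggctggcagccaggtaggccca
The capitals in S100a9 match TTGCNNAA, the core bound by C/EBP factors, 236 bases before the start. Those in Lcn2 match the NF-κB pattern GGGNNNNNCC on the opposite strand, 102 bases before the start. No searched pattern lies in the printed run of S100a8, and a TATAAA match lies 30 bases before its start, outside that run. Both strands of the 250 bases were searched for these patterns and for the AP-1 pattern TGANTCA. RefSeq entries were found for 8 of the 9 genes, S100a10 having none. The NF-κB pattern occurred in 6 of the 8 (Anxa1, Lcn2, S100a11, S100a13, S100a4 and S100a6) and in 45.8% of all 32851 promoters of this length. The C/EBP core occurred in 3 (Anxa1, Lcn2 and S100a9) and in 9.56% of all promoters, TATAAA in 3 (Anxa1, S100a4 and S100a8) and in 12.4%, and the AP-1 pattern in 1 (S100a11) and in 6.75%. The patterns can share bases, and a match describes letters, not a binding site.

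Of the subunits of calprotectin, S100a9 fell and S100a8 did not pass the test. S100a9 (ENSMUSG00000056071, GRCm38 chromosome 3, positions 90692632 to 90695721, minus strand) measured 28.5, 26.9 and 31.5 FPKM in NC replicates 1, 2 and 3 and 20.4, 24.8 and 21.9 FPKM in NSUN2-KO replicates 1, 2 and 3. All 3 NSUN2-KO values lay below the lowest NC value. The means were 28.9 ± 2.33 FPKM in the NC libraries and 22.4 ± 2.28 FPKM in the knockout (SD, n = 3 per group), so that NSUN2-KO held 77.3% of the NC level. S100a9 fell by 0.36 on the log2 scale (SE 0.08, 95% interval -0.54 to -0.17, limma adjusted p = 0.0332). It rested on 427 to 643 reads per library. The call was kept in 9 of 17 alternative settings, and the fold change lay between -0.43 and -0.30 in all 17. Settings in which it was lost included leaving out NC replicate 1 (adjusted p = 0.0694), 2 (0.0538) or 3 (0.101) or NSUN2-KO replicate 1 (0.101) or 3 (0.0797), keeping low genes (0.149) and dropping the mean-variance trend (0.0637).

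S100a8 (ENSMUSG00000056054, chromosome 3, positions 90668978 to 90670035, plus strand) measured 18.9, 15.5 and 16.9 FPKM in the NC libraries and 15.9, 16.5 and 15.2 FPKM in the knockout, in replicate order. The groups overlapped, and NC replicate 1 was the highest of the 6. The means were 17.1 ± 1.71 and 15.9 ± 0.66 FPKM (SD, n = 3 each), with a log2 fold change of -0.10 (SE 0.07, 95% interval -0.26 to 0.06, limma adjusted p = 0.429). The interval includes 0 and also part of the range found for S100a9, and whether the fold changes of the subunits differed was not tested. S100a8 was not called in any of the 17 alternatives. The ratio of S100a8 to S100a9, per length, was 0.663, 0.578 and 0.536 in NC and 0.782, 0.665 and 0.693 in NSUN2-KO. The means were 0.592 ± 0.065 and 0.713 ± 0.061, and the groups missed overlapping by the gap between 0.663 and 0.665. Within groups the coefficient of variation was 7.65% for S100a8 and 9.18% for S100a9, where counting alone gives 4.73% and 4.42%.

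Lcn2 was the member that rose. Lcn2 (ENSMUSG00000026822, chromosome 2, positions 32384633 to 32388252, minus strand) measured 72.5, 80.6 and 78.6 FPKM in the NC libraries and 92.8, 95.9 and 87.9 FPKM in the knockout, in replicate order. Each NSUN2-KO library lay above the highest NC library. The means were 77.2 ± 4.22 and 92.2 ± 4.05 FPKM (SD, n = 3 each), 119.4% of the NC level in NSUN2-KO. The log2 fold change was 0.25 (SE 0.05, 95% interval 0.14 to 0.37, limma adjusted p = 0.0223). With 7351 to 9783 reads per library, counting error was 1.08% of the level and the spread within groups 4.96%. The call was kept in 12 of 17 alternatives. It was lost on leaving out NSUN2-KO replicate 1 (adjusted p = 0.0807) or 2 (0.0647) or NC replicate 3 (0.0635), when low genes were kept (0.0995) and when the trend was dropped (0.0566), at fold changes of 0.21 to 0.30 over all 17. The genes on either side of Lcn2 were low and were not called. 1110008P14Rik measured 2.70 ± 0.56 FPKM in the NC libraries and 2.76 ± 0.34 FPKM in the knockout (adjusted p = 0.899), and Ptges2, a prostaglandin E synthase, 1.45 ± 0.049 and 1.35 ± 0.12 FPKM (adjusted p = 0.627).

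**Figure D2:**
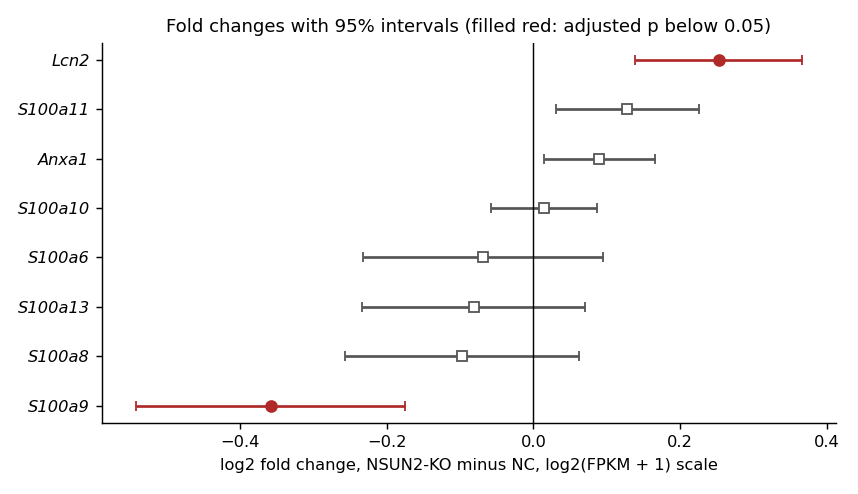
Log2 fold change of the 8 tested genes, NSUN2-KO minus NC on the log2(FPKM + 1) scale, with 95% intervals, filled where the limma adjusted p was below 0.05. Lcn2 (0.25) and S100a9 (-0.36) stand at the ends, and the intervals of S100a11 and Anxa1 exclude 0 before adjustment.

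S100a11 and Anxa1, whose proteins bind each other, lay apart between the groups but did not pass the test. S100a11 (ENSMUSG00000027907, chromosome 3, positions 93520488 to 93526287, plus strand) measured 213.8, 214.2 and 221.1 FPKM in the NC libraries and 241.8, 246.1 and 222.3 FPKM in the knockout. NSUN2-KO replicate 3 was close to the highest NC value. The means were 216.4 ± 4.11 and 236.7 ± 12.7 FPKM (SD, n = 3 each), with a log2 fold change of 0.13 (SE 0.04, 95% interval 0.03 to 0.23, limma adjusted p = 0.107). Without NSUN2-KO replicate 3 the gene was called higher (adjusted p = 0.0301), the only one of the 17 alternatives in which it was. Anxa1 (ENSMUSG00000024659, chromosome 19, positions 20373428 to 20390944, minus strand) measured 104.1, 100.1 and 104.0 FPKM in the NC libraries and 112.0, 109.6 and 106.6 FPKM in the knockout. The groups did not overlap, at means of 102.7 ± 2.27 and 109.4 ± 2.71 FPKM (SD, n = 3 each). Its log2 fold change was 0.09 (SE 0.03, 95% interval 0.01 to 0.17, limma adjusted p = 0.131), and it was not called in any alternative. The ratio of S100a11 to Anxa1 was 2.11 ± 0.046 in NC and 2.16 ± 0.081 in NSUN2-KO, with overlapping libraries.

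S100a10, the ligand of annexin A2 in a membrane-bound complex, had the smallest fold change of the 8 tested genes. S100a10 (ENSMUSG00000041959, chromosome 3, positions 93555080 to 93564643, plus strand) measured 109.4, 106.6 and 111.2 FPKM in the NC libraries and 111.8, 111.0 and 107.6 FPKM in the knockout. The groups overlapped, at means of 109.0 ± 2.33 and 110.1 ± 2.23 FPKM (SD, n = 3 each). The log2 fold change was 0.01 (SE 0.03, 95% interval -0.06 to 0.09, limma adjusted p = 0.822). Anxa2, its partner, measured 264.6 to 269.8 FPKM in the NC libraries and 259.1 to 270.5 FPKM in the knockout. The S100a10 to Anxa2 ratio was 0.408 ± 0.013 in NC and 0.416 ± 0.0059 in NSUN2-KO.

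S100a6, which encodes calcyclin, and S100a13, which takes part in the export of FGF1 and IL-1α, were not called. S100a6 (ENSMUSG00000001025, chromosome 3, positions 90612882 to 90624181, plus strand) measured 39.6, 47.1 and 41.4 FPKM in the NC libraries and 41.1, 43.0 and 37.7 FPKM in the knockout (log2 fold change -0.07, SE 0.07, 95% interval -0.23 to 0.10, limma adjusted p = 0.597). The groups overlapped, and NC replicate 2 stood highest. Its within-group spread of 7.99% was wider than the 2.13% of counting error. S100a13 (ENSMUSG00000042312, chromosome 3, positions 90514435 to 90524581, plus strand) measured 23.2, 23.2 and 23.3 FPKM in the NC libraries and 20.9, 24.6 and 20.4 FPKM in the knockout. The NC libraries lay closer together (SD 0.031 FPKM) than the counting error of 3.98% would give, and the NSUN2-KO libraries spread to both sides of them. The log2 fold change of S100a13 was -0.08 (SE 0.07, 95% interval -0.23 to 0.07, limma adjusted p = 0.489). Without NSUN2-KO replicate 2 it was -0.16 (adjusted p = 0.0565).

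S100a4, which binds non-muscle myosin heavy chain, was barely detected and was not tested. S100a4 (ENSMUSG00000001020, chromosome 3, positions 90603771 to 90606045, plus strand) measured 0.443, 0.150 and 0.394 FPKM in the NC libraries and 0.341, 0.195 and 0.319 FPKM in the knockout, from 4 to 10 reads per library. The groups overlapped, and the within-group spread of 39.0% was about that of counting (40.4%), so that no difference was detectable at this depth. In the GENCODE vM21 annotation 302 of the 584 exonic bases of S100a4 (51.7%) are shared with Gm42674 on the same strand, which had 0 FPKM in all 6 libraries. Reads in both genes are left out by some counting settings, and the sources used here do not give the setting, so the level of S100a4 is uncertain. None of the other 8 genes shares exonic bases with another gene.

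For a single gene the exact two-sided permutation test of 3 against 3 libraries cannot go below p = 0.1. That value was reached by S100a9, Lcn2, S100a11 and Anxa1, the 4 genes whose groups did not overlap. The exact p was 0.4 for S100a8 and S100a13, 0.5 for S100a6 and 0.6 for S100a10 and S100a4.

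**Figure D3:**
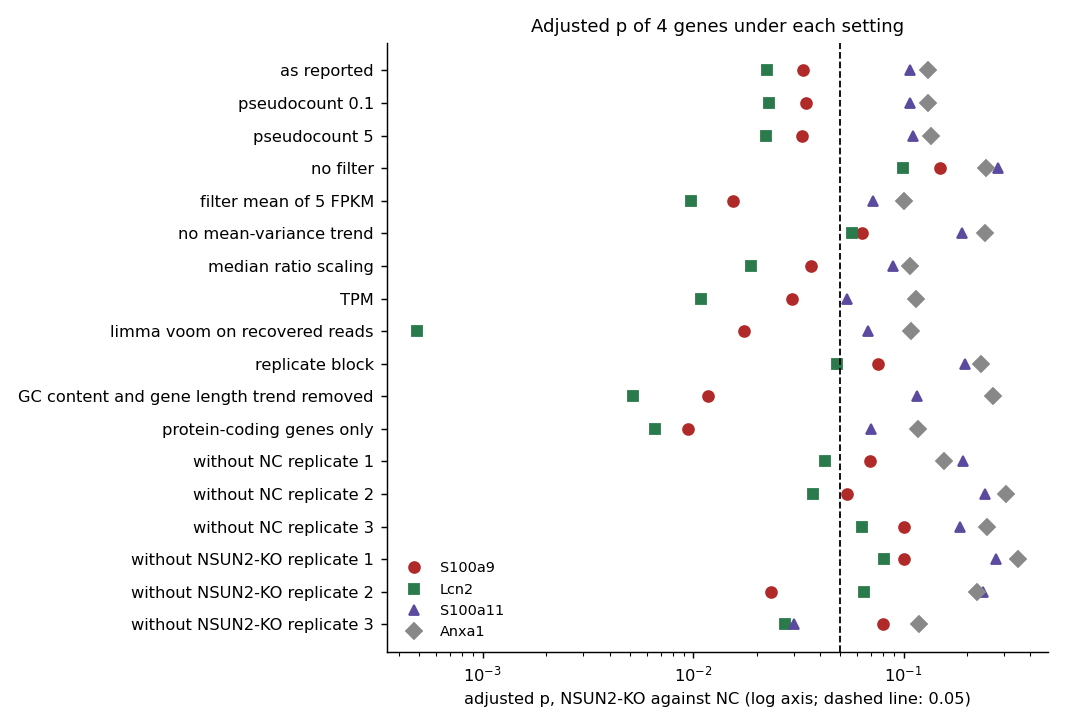
Limma adjusted p (log axis, dashed line at 0.05) of S100a9, Lcn2, S100a11 and Anxa1 as reported and under 17 alternative settings. Lcn2 lies left of the line in 12 alternatives, S100a9 in 9, S100a11 in 1 and Anxa1 in 0.

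Levels, per length, were ordered as follows. S100a11 was highest, at a mean of 226.6 FPKM over the 6 libraries, followed by S100a10 (109.6 FPKM) and Anxa1 (106.1 FPKM), whose ranges over the libraries overlapped. Lcn2 came next at 84.7 FPKM and S100a6 at 41.6 FPKM. S100a9 (25.7 FPKM) and S100a13 (22.6 FPKM) overlapped, S100a8 stood below them at 16.5 FPKM, and S100a4 was last at 0.307 FPKM. The order depends on the gene length that divides the reads. The deposited length of Lcn2 is 2623 bases, whereas its principal transcript in GENCODE vM21 has 915, and with the latter Lcn2 would stand at 242.9 FPKM, above S100a11 in 5 of 6 libraries. With principal transcripts S100a10 would be at 193.9, Anxa1 at 165.3, S100a6 at 77.9, S100a9 at 25.8 and S100a8 at 23.5 FPKM, with S100a11 and S100a13 as before. A length scales all libraries by the same factor.

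The 7 S100 genes of the set added up to 433.6 to 445.6 FPKM in the NC libraries and 425.4 to 466.2 FPKM in the knockout, with overlapping groups. S100a11 and S100a10 made up 74.0% to 74.6% of that sum in NC and 76.6% to 78.2% in NSUN2-KO. S100a8 and S100a9 made up 9.77% to 10.9% in NC and 8.02% to 8.87% in NSUN2-KO. Neither pair of ranges overlapped, as a description of these libraries.

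The S100 genes of chromosome 3 number 14 in the deposited table and lie in 2 blocks. The first block, from S100a1 to S100a9, holds 12 genes over 184.7 kb, and the second, S100a11 and S100a10, spans 44.2 kb. The blocks are 2.82 Mb apart, with 102 genes between them of which 1, the pseudogene Gm4202, reached the level for testing (10.6 to 13.6 FPKM). Of the 14 S100 genes 7 were tested, and the others stood among them with few or no reads: S100a14, S100a2 and S100a5 had 0 reads in all 6 libraries, S100a16 had 6, S100a3 had 5 and S100a7a 52 in all. S100a5, at 0 reads, lies between S100a4 with 42 reads and S100a6 with 13507. S100a8 and S100a9 are 22596 bases apart on opposite strands. S100a1, the 1 tested S100 gene outside the set, starts 42 bases from S100a13 on the opposite strand and measured 15.3 ± 2.17 FPKM in the NC libraries and 15.7 ± 1.8 FPKM in the knockout (SD, n = 3 each, log2 fold change 0.04, limma adjusted p = 0.865).

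**Figure D4:**
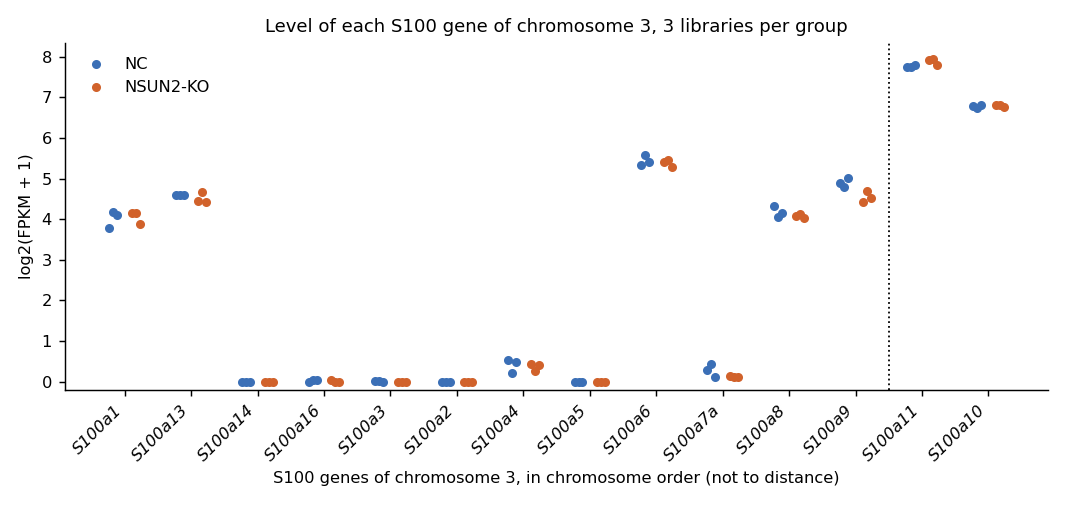
Level of the 14 S100 genes of chromosome 3 as log2(FPKM + 1), in chromosome order and not to distance, with 3 points per group and a dotted line between the 2 blocks. Expressed genes of the first block (S100a1 and S100a13, then S100a6, then S100a8 and S100a9) are separated by genes at or near 0, and the second block is highest.

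Among receptors of these alarmins, Cd14 and the formyl peptide receptor genes Fpr1 and Fpr2 rose, while Fpr3 was below the level for testing. Of 11 receptor genes listed, 7 were tested, 3 were higher and 0 lower, with a median log2 fold change of 0.15. Over all tested genes 4.19% were called higher and 4.30% lower. This list and those below were chosen with earlier results of these data known. Cd14, the co-receptor of TLR4, measured 202.7, 209.2 and 204.7 FPKM in the NC libraries and 252.4, 249.0 and 252.0 FPKM in the knockout (log2 fold change 0.29, limma adjusted p = 0.00113) and kept its call in all 17 alternatives. Fpr1 rose from 131.5 ± 3.24 to 154.8 ± 9.45 FPKM (0.23, adjusted p = 0.0246) and Fpr2, a receptor of annexin A1, from 126.5 ± 1.29 to 145.2 ± 8.19 FPKM (0.20, adjusted p = 0.0309; SD, n = 3 each). Both kept the call in 9 of 17 alternatives. Without any 1 of NC replicates 1, 2 and 3 or NSUN2-KO replicates 1 and 2 their adjusted p rose to between 0.0612 and 0.0949 for Fpr1 and between 0.0658 and 0.101 for Fpr2. Tlr4 itself measured 22.3 to 24.2 FPKM in the NC libraries and 23.1 to 23.5 FPKM in the knockout (0.01, adjusted p = 0.864). Ly96, the MD-2 subunit of the TLR4 complex, measured 16.9 ± 1.44 and 18.8 ± 0.54 FPKM (0.15, adjusted p = 0.178). The lipocalin 2 receptors were at or near 0, with Lrp2 at 0 FPKM in all 6 libraries and Slc22a17 at most 0.047 FPKM, and Ager, which encodes RAGE, reached 0.131 FPKM.

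Transcription factors known to act on Lcn2 or on S100a8 and S100a9 went both ways. Of 9 listed, 8 were tested, 1 was higher and 2 were lower (median log2 fold change 0.04). The shares called over all tested genes were 4.19% higher and 4.30% lower. The groups lay apart in 3 factors that were higher and 2 that were lower, against 14.4% and 16.7% of all tested genes. Nfkbiz, the IκBζ cofactor of NF-κB needed for Lcn2 induction, rose from 10.1 ± 0.21 to 11.6 ± 0.53 FPKM, with groups that did not overlap (0.18, limma adjusted p = 0.0485). Its call was kept in 8 of 17 alternatives and, among the fits without 1 library, in the one without NSUN2-KO replicate 2. The others gave an adjusted p of 0.0965 to 0.160. Cebpa, a C/EBP factor of the granulocyte and monocyte line, measured 7.02, 7.08 and 7.21 FPKM in the NC libraries and 4.93, 4.22 and 5.53 FPKM in the knockout. It fell by 0.47 (adjusted p = 0.0139), and lost the call when NC replicate 2 or 3 or NSUN2-KO replicate 1 was left out (adjusted p from 0.0514 to 0.0540). With a pseudocount of 5 its fold change was -0.29. Spi1, which encodes PU.1, fell from 130.1 ± 4.47 to 115.3 ± 1.12 FPKM (-0.17, adjusted p = 0.0215), with the call lost when NC replicate 2 or 3 or NSUN2-KO replicate 1 or 2 was left out (0.0583 to 0.0820). With each library's GC content and gene length trend removed, the fold change of Spi1 was -0.09 (adjusted p = 0.0339). Nfkb1, a subunit of NF-κB, measured 15.5 ± 0.17 and 16.9 ± 0.44 FPKM (0.12, adjusted p = 0.0966). Cebpb, the C/EBP factor of activated macrophages, measured 149.4, 169.3 and 171.7 FPKM in the NC libraries and 150.3, 167.4 and 148.8 FPKM in the knockout and was not called (adjusted p = 0.542).

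Of 11 other annexins listed, 8 were tested, 1 was higher and 1 lower (median log2 fold change -0.03). The shares called over all tested genes were 4.19% higher and 4.30% lower. The fold change was positive in 1 annexin and negative in 7, and 6 of the 8 were not called. It was positive in 4551 of all 9443 tested genes. The groups lay apart in 1 that was higher and 3 that were lower, against 14.4% and 16.7% of all tested genes. Anxa5, which binds phosphatidylserine, rose from 233.1 ± 2.76 to 261.0 ± 5.94 FPKM (0.16, limma adjusted p = 0.0165), with the call lost without NC replicate 3 (0.0772) or NSUN2-KO replicate 1 (0.0568). Anxa6 fell from 157.2 ± 4.80 to 133.4 ± 1.05 FPKM (-0.23, adjusted p = 0.00554) and kept its call in all 17 alternatives. Anxa3 measured 15.7 ± 0.29 and 14.5 ± 0.27 FPKM (-0.10, adjusted p = 0.130) and Anxa9 1.31 ± 0.13 and 0.888 ± 0.16 FPKM (-0.29, adjusted p = 0.0965). Of 8 proteins known to bind an S100 protein of this set or to travel with it, 6 were tested and 1 rose (median log2 fold change -0.01). Il1a, whose product is exported with S100a13 and is itself an alarmin, measured 20.8, 19.8 and 19.7 FPKM in the NC libraries and 33.1, 34.4 and 27.4 FPKM in the knockout (0.62, adjusted p = 0.00403, called in all 17 alternatives). Myh9, a target of S100a4 (-0.05, adjusted p = 0.460), and Cacybp and Sugt1, which bind S100a6 (0.11 and -0.08, adjusted p = 0.440 and 0.482), were not called.

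Of 12 alarmins listed outside the set 10 were tested (median log2 fold change 0.06). Against 4.19% higher and 4.30% lower over all tested genes, 3 of them were higher and 0 lower. Beside Il1a these were Hsp90b1, an endoplasmic reticulum chaperone, which rose from 109.8 ± 3.96 to 125.0 ± 2.84 FPKM (0.19, limma adjusted p = 0.0216), and Hspa1b, an inducible heat shock protein, which rose from 7.14 ± 0.43 to 8.40 ± 0.18 FPKM (0.21, adjusted p = 0.0471). Hsp90b1 lost its call when NC replicate 2 or 3 or NSUN2-KO replicate 1 or 2 was left out (0.0605 to 0.0794). Hspa1b lost it without any 1 of the 6 libraries (0.0526 to 0.154). Its near-identical neighbour Hspa1a, with which it can share reads, measured 6.32 ± 0.58 and 7.33 ± 0.41 FPKM (0.19, adjusted p = 0.129).

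Neutrophil markers outside the set were mostly at or near 0. Of 20 listed, 8 had a mean of at least 1 FPKM, 0 were higher and 2 lower (median log2 fold change -0.04). The shares called over all tested genes were 4.19% higher and 4.30% lower. The groups lay apart in 1 marker that was higher and 3 that were lower, against 14.4% and 16.7% of all tested genes. All 20 together summed to 140.1 to 143.9 FPKM in the NC libraries and 129.4 to 131.4 FPKM in the knockout. The defining granule gene Elane and Retnlg had 0 FPKM in all 6 libraries, Mpo was at most 0.0581 FPKM and Ly6g at most 0.220 FPKM. The 12 markers below the filter summed to 2.91 to 3.11 FPKM in the NC libraries and 2.46 to 2.61 FPKM in the knockout. Csf3r, the G-CSF receptor, measured 30.2, 28.6 and 29.4 FPKM in the NC libraries and 20.7, 20.1 and 20.6 FPKM in the knockout. It fell by 0.50 (limma adjusted p = 0.000477) and kept its call in all 17 alternatives. Mmp8, neutrophil collagenase, measured 27.0, 25.1 and 25.2 FPKM in the NC libraries and 21.9, 20.4 and 19.6 FPKM in the knockout. It fell by 0.31 (adjusted p = 0.0111) and was not called when low genes were kept in the test (0.0569). Lyz1, a near copy of Lyz2 with which it can share reads, measured 4.52 ± 0.34 and 3.32 ± 0.52 FPKM (-0.36, adjusted p = 0.0593), and Gsr 68.3 ± 1.52 and 72.7 ± 1.65 FPKM (0.09, adjusted p = 0.135). Csf3r and Mmp8 fell, as S100a9 did, whereas Lcn2 rose. The list as a whole was evenly split, with a positive fold change in 4 of the 8 tested markers, Gsr among them. In bulk RNA fewer cells of a type and less RNA per cell cannot be told apart, and the part of other cells in the S100a9 result was not tested.

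**Figure D5:**
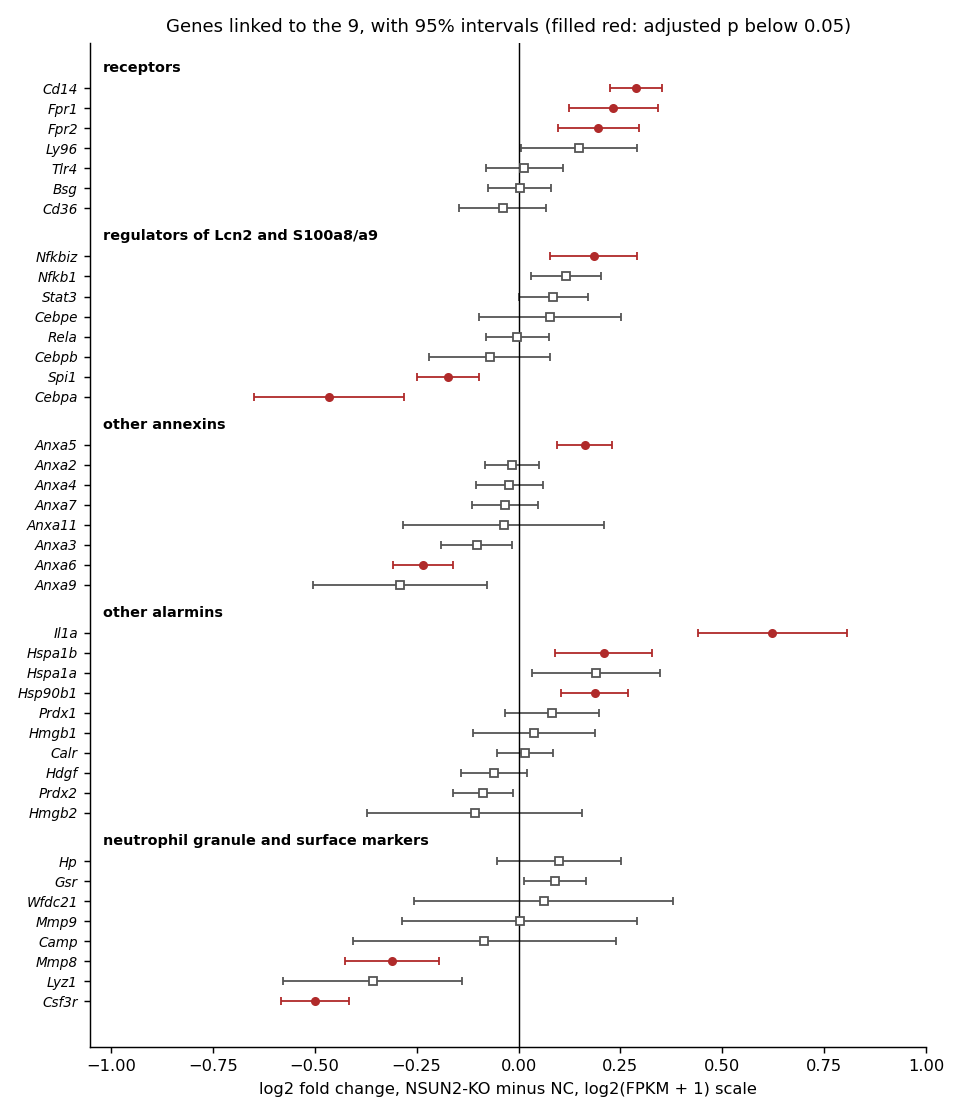
Log2 fold change (NSUN2-KO minus NC, log2(FPKM + 1) scale) with 95% intervals of the tested receptors, transcription factors, annexins, other alarmins and neutrophil markers, filled where the limma adjusted p was below 0.05. Il1a (0.62) and Cd14 (0.29) lie to the right, and Csf3r (-0.50) and Cebpa (-0.47) to the left.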

How the data were processed

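The authors deposited FPKM values for 54532 genes in 6 libraries, with gene lengths, per the file headers. TRIzol was used to extract total RNA, per the labels' protocols. The submitters' processing notes name DESeq2 1.20.0, featureCounts 1.5.0-p3, HISAT2 2.0.5, fastp and CASAVA 1.8 and the build GRCm38 (mm10). The sources used here do not give the annotation release or strand setting. The series' text gives 3 replicates per group in one place and fewer in another, and 3 columns per group were found and used.

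FPKM times gene length gave whole reads for 100% of values (tolerance 0.01 reads), so depth was known. These reads are not independent molecules, and counting errors cover counting only. Limma 3.58.1 (R 4.3.3) was run on log2(FPKM + 1) of genes averaging 1 FPKM or more, with an empirical Bayes trend over the mean and Benjamini-Hochberg adjustment. P-values measure the spread between these libraries. The fit was tested on simulated data. The alternatives were a pseudocount of 0.1 or 5 FPKM, no filter or a mean of 5 FPKM, no trend, median ratio scaling, conversion to TPM, the replicate number as a block, limma voom on the recovered reads, removal of each library's GC content and gene length trend (loess, span 0.5), protein-coding genes only, and leaving out each of the 6 libraries. Levels with principal transcript lengths and the macrophage marker sum without Lyz2 were added after seeing the data. Exonic overlap, GC content and transcript lengths came from GENCODE vM21 and promoters from RefSeq. Tables were made with Python 3.11.15, pandas 2.3.3 and matplotlib 3.10.9.

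The 9 genes and the gene lists were chosen with earlier results of these data known. Named were all 9 genes, up to 4 tested genes of each other list by smallest unadjusted p, defining markers at or near 0, genes next to a member, Nsun2 and sex-linked genes. Tlr4, Anxa2, Cebpb, Slc22a17, Ager, Fcgr1 and Gm4202 were named after their values were seen. For S100a8, S100a9 and Lcn2 the 5 tested genes with the highest Pearson correlation over the 6 libraries were also named.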

Additional observations from a re-analysis of the deposited data

How the results depend on the processing

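Among the 8 tested genes of the set, 6 of the fold changes kept their sign in all 17 alternatives, and no scaling moved the median of all genes by more than 0.1 on the log2 scale. With no filter on low values limma called 0 of the 9 genes higher and 0 lower (265 of 24414 genes called, 3187 at an unadjusted p below 0.05). Without the mean-variance trend it called 0 higher and 0 lower (526 called, 2333 unadjusted). Limma voom called 1370 genes, against 802 as reported. Leaving out 1 library gave 276 to 596 called genes, 0 to 2 genes of the set higher and 0 to 1 lower. Samples with the same replicate number did not deviate together over all tested genes (correlations of -0.0095, -0.030 and 0.0034). With 3 libraries per group these correlations cannot show whether same-numbered cultures were prepared as pairs. With the replicate number as a block 351 genes were called (2098 unadjusted), 1 gene of the set higher (Lcn2, adjusted p = 0.0480) and 0 lower (S100a9, adjusted p = 0.0752). Signs turned only in genes near 0 that were not called: leaving out 1 library moved S100a6 from -0.12 to 0.0023, S100a10 from -0.0022 to 0.031 and S100a1 from -0.074 to 0.13, the turn coming without NC replicate 2 in S100a6 and S100a10 and in S100a1 without NC replicate 1 or NSUN2-KO replicate 1 or 2. Removing the GC content and gene length trend gave Myh9 a fold change of 0.00086. Among linked genes, keeping low genes ended the calls of Fpr1, Fpr2, Nfkbiz, Cebpa, Spi1, Anxa5, Hsp90b1, Hspa1b and Mmp8 (adjusted p from 0.0569 to 0.125). Without the trend those of Fpr1, Fpr2, Nfkbiz, Spi1, Anxa5, Hsp90b1 and Hspa1b ended (0.0630 to 0.0790). With the block the calls of the same 7 genes ended (0.0660 to 0.125) and Lyz1 was called lower (0.0448). In TPM the calls of Nfkbiz (0.0674) and Hspa1b (0.0519) ended. The cause of these changes was not tested. S100a4 had 4 to 10 reads per library.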

Other observations

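Genes whose pattern over the 6 libraries was most like that of 3 members are given as a description, with Pearson's r of log2(FPKM + 1). The libraries are shared by every pair, and a difference between the groups alone gives a high r, so these values carry no test. For Lcn2 they were Mif (r = 0.992), which encodes a macrophage cytokine, C130026I21Rik (0.992), Prdx5 (0.991), a peroxiredoxin, Srp9 (0.991), of the signal recognition particle, and Tarm1 (0.989), a receptor of myeloid cells. Mif measured 92.3 ± 3.76 FPKM in the NC libraries and 108.1 ± 3.14 FPKM in the knockout, and Prdx5 288.8 ± 15.1 and 344.2 ± 7.52 FPKM (SD, n = 3 each). Of these 5, all but Srp9 were called higher in limma. For S100a9 they were Commd9 (0.989), Lrrc45 (0.978), Lmbrd1 (0.977), Tnfrsf26 (0.976) and Prr14 (0.976), of which Tnfrsf26 was called lower, from 55.5 ± 1.38 to 49.0 ± 2.45 FPKM. For S100a8 they were Tmem106b (0.985), Chfr (0.983), Hps4 (0.978), Anxa4 (0.98) and Gskip (0.969), and none of these was called.

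Within the set, S100a8 and S100a9 had an r of 0.574 over the 6 libraries, lower than that of S100a11 with Lcn2 (0.893) or with Anxa1 (0.891), and S100a9 and Lcn2 had an r of -0.745. Among S100 genes away from chromosome 3, S100b was listed at 0, 0.029 and 0 FPKM in the NC libraries and 0.168, 0.154 and 0.144 FPKM in the knockout, below the level for testing. With no filter on low values, 1 of the listed S100 genes outside the set was called higher and 0 lower.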
